A study of Mus musculus with 29 samples.

Results

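The DNA replication genes described here are 46 genes that load, switch on and run the DNA copying machinery, found by their NCBI gene IDs in a table of 22779 IDs measured in 29 libraries of mouse lung. The members are the 6 MCM helicase genes, 12 licensing and activation genes, 7 polymerase and primase genes, 9 genes of the fork and lagging strand, 5 of nucleotide supply, 4 of chromatin assembly and fork protection and 3 of the control of entry into S phase. All 46 were in the table and all 46 passed the filter on low values that left 14616 genes for testing, none of them through 1 stage group alone. Each reached 1 FPKM (a level scaled for transcript length and for the number of mapped fragments) in at least 12 of the 29 libraries, and 40 did so in at least 20.

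Each library came from 1 of 29 untreated wild-type C57BL/6 mice, from alveolar tissue that a laser had cut out of a lung section. The 15 ages ran from embryonic day (E) 16.5 to postnatal day (P) 28, each with 2 animals except P28, which had 1. The stage groups were 4 prenatal animals of E16.5 or E18.5, 8 postnatal saccular ones aged P0.5 through P2.5, 8 early alveolar ones aged P4 through P10, and 9 late alveolar ones aged P13.5 through P28. For steps in time, E16.5 and E18.5 stood alone and neighboring later ages were joined, which gave 8 age blocks named by their first and last age, such as P4-P5 and P19-P28.

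A captured area is a mixture of cells, so fewer cells of a cycling type and less RNA per cell cannot be told apart. The 5 markers of each of alveolar type 1, alveolar type 2, endothelial and mesenchymal cells were present in all age blocks. Club cell genes of the airway summed to between 168 and 5709 FPKM although the cut was meant to avoid bronchi. Heart muscle genes summed to 961 and 1732 FPKM in the E16.5 libraries and to no more than 451 FPKM elsewhere. The Xist and Y-linked genes of 14 of the 29 libraries went against the labelled sex. The libraries of P10 animal a and P19 animals d and f list 447, 615 and 268 of 8817 genes with a median of at least 5 FPKM at 0, so a 0 can be a failed estimate. These 3 libraries hold 43 of the 85 zeros among the 1334 values of the replication genes.

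Before a cell divides, the origin recognition complex (ORC) with Cdc6 and Cdt1 loads the MCM2-7 helicase onto DNA in G1 phase, and geminin (Gmnn) keeps Cdt1 from doing so again. At the start of S phase Mcm10, Cdc45 and the GINS complex turn the loaded helicase into a moving fork, where the primase and DNA polymerases alpha, delta and epsilon copy the strands around the sliding clamp Pcna. Many of these genes are known targets of E2F transcription factors and are read in cells that enter S phase. In the lung, proliferation before birth builds the airways and saccules, and in the first postnatal weeks it accompanies septation, the outgrowth of new walls that divide the saccules into alveoli.

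Promoter sequences are shown for members that hold an E2F element, a feature that the rule did not use and that fewer members hold than lack. Of the 46 members, 37 had an entry in a RefSeq table of promoters (build GRCm38.p6). The 250 bases before each start listed there were searched on both strands for TTTGGCGC, TTTCCCGC, TTTGCCGC and TTTCGCGC. Such an element stood in 9 of the 37 (24.3%), against 2.16% of 27025 genes in the table and 3.69% of the 11525 tested genes with an entry. The 9 were Mcm5, Mcm6, Mcm7, Orc1, Cdc6, Gins3, Dtl, Pola1 and Rfc3. A CCAAT box, searched on both strands as CCAAT, stood in 21 of the 37 (56.8%), against 37.5% of genes in the table and 39.5% of tested genes. The genes without an entry were Mcm4, Gmnn, Gins1, Gins2, Gins4, Prim2, Pole, Rfc2 and Ccne2. The 6 stretches below, from helicase, loading and destruction genes, run 5′ to 3′ on the strand of the gene, with E2F elements of either strand in capitals.
Mcm6, chr1:128359725-128359835, minus strand: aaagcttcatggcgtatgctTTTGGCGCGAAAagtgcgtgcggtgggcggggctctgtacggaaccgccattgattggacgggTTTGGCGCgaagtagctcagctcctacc
Mcm5, chr8:75109336-75109387, plus strand: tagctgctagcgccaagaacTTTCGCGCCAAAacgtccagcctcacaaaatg
Mcm7, chr5:138172021-138172068, minus strand: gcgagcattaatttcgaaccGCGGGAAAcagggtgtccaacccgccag
Orc1, chr4:108579407-108579453, plus strand: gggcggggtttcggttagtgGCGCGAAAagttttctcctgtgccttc
Cdc6, chr11:98907993-98908040, plus strand: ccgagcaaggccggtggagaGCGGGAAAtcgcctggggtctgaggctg
Dtl, chr1:191575545-191575572, minus strand: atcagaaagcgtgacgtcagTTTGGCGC

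In Mcm5 and in the left block of Mcm6, 2 elements on opposite strands overlap. The element of Dtl ends at the base before the start of the gene. That of Mcm7 begins 165 bases before a listed start of that gene, which has 2 of them. The stretches of Mcm7, Orc1 and Cdc6 lie within the span of their genes, so the starts used there are not the outermost ones. A match of letters is a description and not a measured binding site.

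The level of the replication genes was highest at E16.5, lower at E18.5 and over the first days after birth, high again at P4 and P5 and lower at the ages after that. The mean log2(FPKM + 1) over the 46 members was 4.21 and 4.17 in the E16.5 libraries and 2.41 and 2.60 in the E18.5 libraries. At P0.5 it was 2.26 in animal e and 3.47 in animal f. From P1 to P2.5 the 6 libraries lay between 2.02 and 2.60. At P4 the values were 3.76 and 3.34 and at P5 3.39 and 3.40, so these 4 libraries lay above every other postnatal library except that of P0.5f. The values were 2.79 and 2.98 at P7, 2.11 and 2.37 at P10, and 1.80 and 1.98 at P13.5. At P15 animal c stood at 2.92 and animal e at 2.18. The 4 libraries of P19 and P23 lay between 1.73 and 1.91, and the single P28 library at 2.45.

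**Figure D1:**
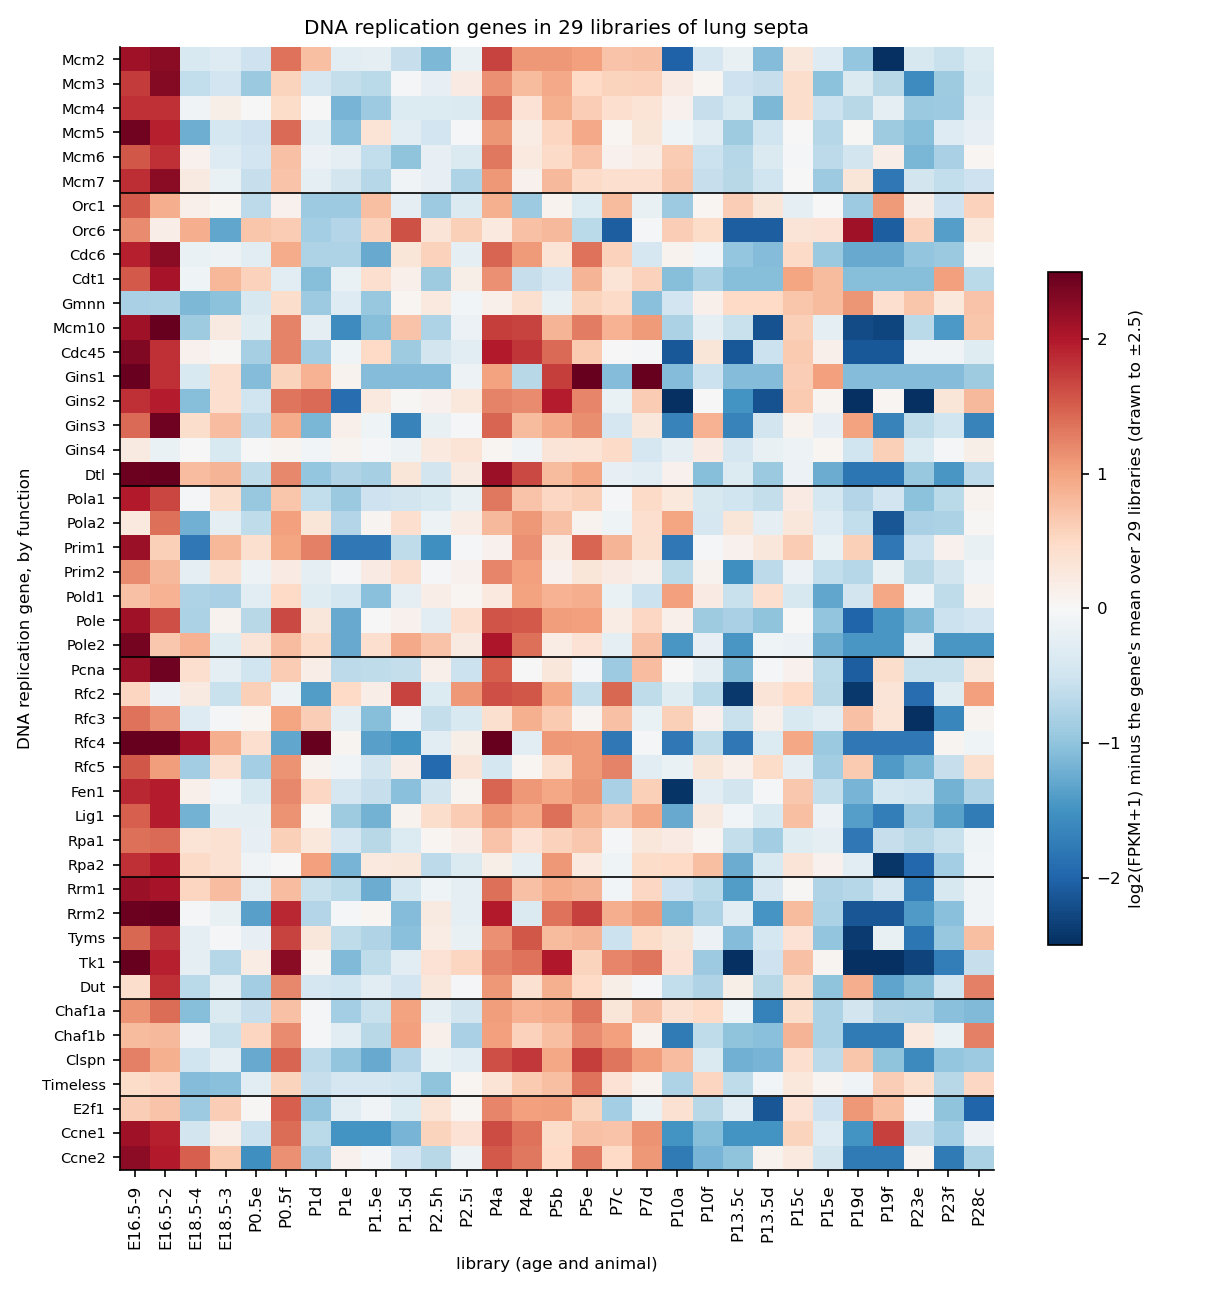
Each row is a DNA replication gene and each column a library in order of age; color is log2(FPKM + 1) minus the mean of the gene over the 29 libraries, drawn to ±2.5, and black lines part the functional groups. The E16.5 columns (mean over the 46 genes of 4.21 and 4.17) and the P4 and P5 columns (3.34 to 3.76) are mostly red, P0.5f (3.47) is red among its neighbors, and the rows of Gmnn and Gins4 do not follow the others.

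This order held for most single members. In 38 of 46 the block with the highest median was E16.5, and in 33 of those 38 the next highest was P4-P5. P4-P5 itself held the highest median for 7, Gins4, Pold1, Rfc2, Chaf1b, Clspn, Timeless and E2f1, and P19-P28 for Gmnn. The lowest median fell in P19-P28 for 24 members and in P13.5-P15 for 8. The age test, a limma F test of a smooth curve over all 29 libraries, called 16 of 46 members changed with age, near the 30.7% of all tested genes.

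The largest step was that from E16.5 to E18.5, the days in which the canalicular lung becomes saccular. The change was negative in 46 of 46 members, with a median of -1.61 against -0.10 over all genes, and both E16.5 libraries lay above both E18.5 libraries in 41 of 46 members, against 28.4% of all genes. As a ratio of median FPKM the E16.5 level was 3.61 times the E18.5 level for the middle member, with a range from 1.17 for Gins4 to 9.99 for Mcm5. By limma in a fit of the 8 blocks, with p adjusted by Benjamini-Hochberg over all 14616 genes, 10 of 46 were lower (1.72% of all genes) and 0 were higher (2.1% of all genes). At an unadjusted p under 0.05, 29 members were lower (8.46% of all genes) and 0 higher (6.96% of all genes). The 10 were Mcm3, Mcm4, Mcm5, Mcm6, Mcm7, Cdc6, Pola1, Pcna, Lig1 and Chaf1a. Of these, Mcm3 alone kept its call when each of the 29 libraries was left out in turn, and the count ranged from 1 without E18.5-4 to 12 without P0.5f. With E16.5-9, E16.5-2 or E18.5-3 left out it was 2, 2 and 3. Markers of other cell types moved over the same step. Mesenchymal markers were called lower in 3 of 5 and higher in 0 (median change -1.09). The other 2 had positive changes, both at an unadjusted p under 0.05 in limma. The heart muscle genes named above were lower in 2 of 4. Alveolar type 1 markers were higher in 4 of 5, with sums of 84.7 and 89.7 FPKM at E16.5 and of 492 and 579 FPKM at E18.5. Alveolar type 2 markers were higher in 4 of 5, with sums of 2172 and 5368 FPKM and then of 13500 and 16650 FPKM, and endothelial markers in 3 of 5, while 1 of 5 macrophage and 1 of 3 club cell markers were higher. The part of these cell mixtures in the change of the members was not tested.

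The MCM helicase, the ring of 6 subunits that unwinds DNA ahead of the fork, held 5 of the 10 calls of this step. Of its 6 genes 5 were lower at E18.5 (1.72% of all genes), and the median change was -2.27. Its ratios of median FPKM ran from 3.58 for Mcm4, near the middle member, to 9.99 for Mcm5. Outside it, Rrm2 (8.98) and Tk1 (8.73) exceeded all helicase genes but Mcm5. All 5 nucleotide supply genes were lower at an unadjusted p under 0.05 (8.46% of all genes), with 0 called and a median of -1.76. Mcm3 measured 51.3 and 75.1 FPKM at E16.5 and 9.11 and 10.2 FPKM at E18.5, a change of -2.57 ± 0.45 (standard error, SE; limma adjusted p = 0.000742). Mcm5 measured 38.3 and 27.5 FPKM and then 2.15 and 4.45 FPKM, a change of -3.02 ± 0.55 (adjusted p = 0.00127, and 0.0538 without E18.5-4). Neither gene had libraries of the 2 ages that overlapped. Mcm4, the helicase gene with the highest mean level, measured 68.8 and 68.6 FPKM and then 17.5 and 20.8 FPKM (change -1.79, adjusted p = 0.0204, and up to 0.196 without 1 of these 4 libraries). The sixth gene, Mcm2, changed by -2.53 with an adjusted p of 0.0761.

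At the fork, Pcna had the highest level of all 46 members, with a mean of 49.7 FPKM over the libraries. It measured 178.5 and 216.5 FPKM at E16.5 and 52.5 and 33.6 FPKM at E18.5, and after that P4a, at 112.5 FPKM, and P7d, at 67.8 FPKM, were highest. Its change was -2.20 ± 0.62 (adjusted p = 0.0446), and the call was lost without any 1 of the 4 prenatal libraries or of P1d, P1.5e, P2.5i, P5b, P10f, P15e, P23e and P23f (adjusted p up to 0.293) and under a pseudocount of 0.1, no filter or median ratio scaling. Lig1, the ligase that joins lagging strand fragments, fell from 18.9 and 26.7 FPKM to 2.09 and 4.96 FPKM (change -2.45 ± 0.64, adjusted p = 0.0276), a call lost without E16.5-9, E16.5-2 or E18.5-4. Rfc2, a subunit of the loader that places Pcna on DNA, measured 6.82 and 3.82 FPKM and then 5.24 and 2.63 FPKM, with libraries that overlapped.

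Birth itself brought no call among the members. From E18.5 to P0.5-P1 limma called 0 of 46 higher (1.96% of all genes) and 0 lower (0.876% of all genes), also 0 and 0 at an unadjusted p under 0.05 (9.66% and 6.44% of all genes), and the median change was 0.10 against 0.06 over all genes. From P0.5-P1 to P1.5-P2.5 the counts were 0 higher (0% of all genes) and 0 lower (0% of all genes), with 0 and 0 at an unadjusted p under 0.05 (1.12% and 1.59% of all genes) and a median of -0.10. Without P0.5f these medians were -0.19 and 0.32, and without E18.5-4 the first was -0.03. A comparison of the pooled stage groups, postnatal saccular against prenatal, called 11 of 46 lower (6.81% of all genes) and 0 higher (9.11% of all genes), with 19 lower (14% of all genes) and 1 higher (14.9%) at an unadjusted p under 0.05 and a median of -0.90 against -0.00 over all genes. When the prenatal group was cut to the E18.5 animals, 0 were lower and the median was 0.04, so that the pooled count rested on the E16.5 libraries. Without E16.5-9 the count was 3 and without E16.5-2 it was 2.

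**Figure D2:**
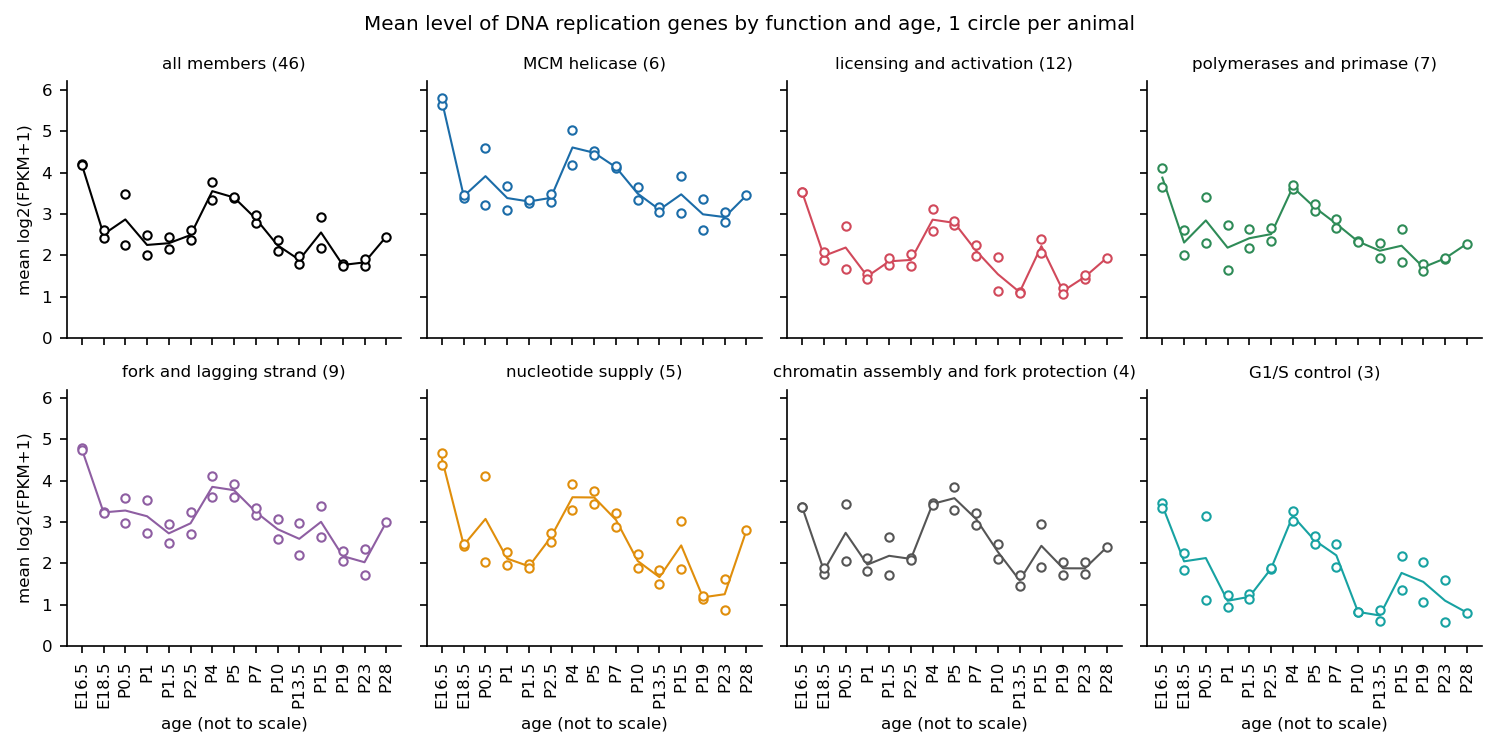
Mean log2(FPKM + 1) of all 46 genes and of each of the 7 functional groups (number of genes in parentheses) by age, 1 circle per animal, with a line through the mean of each age; ages are evenly spaced and not to scale. All panels are highest or nearly so at E16.5, and are high again at P4 and P5, where the mean over all genes was 3.34 to 3.76; the P0.5 animals stand apart from each other in all panels.

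From P1.5-P2.5 to P4-P5, when septation sets in, the values of the members were higher again, without a call for any of them. The change was positive in 45 of 46, with Orc6 the exception at -0.50 ± 0.77, and its median was 1.14 against 0.03 over all genes. All 4 libraries of P4-P5 lay above all 4 of P1.5-P2.5 in 26 of 46 members, against 5.23% of all genes. For the 43 members with a median of at least 1 FPKM in both blocks, the ratio of medians ran from 0.939 to 5.94, and the middle member stood at 2.25 times its earlier level. Limma called 0 of 46 higher (0.0479% of all genes) and 0 lower (0.0342% of all genes), while at an unadjusted p under 0.05 the counts were 28 higher (5.6% of all genes) and 0 lower (3.98% of all genes). Without P0.5f, which enters the shared estimate of spread, the count of higher members was 5, and with quantile normalization it was 1. The smallest adjusted p, 0.0954, was shared by Mcm4, Mcm6, Rrm1 and Clspn.

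Clspn, which encodes claspin, a mediator of the checkpoint at stalled forks, had the largest change of the 46 in this step, 2.12 ± 0.53. It measured 0.918 and 1.77 FPKM at P1.5, 3.09 and 2.82 FPKM at P2.5, 13.1 and 14.7 FPKM at P4, and 7.97 and 14.2 FPKM at P5. The lowest of the P4 and P5 values was above the highest of the P1.5 and P2.5 values. Rrm1, the large subunit of ribonucleotide reductase, which makes the building blocks of DNA, measured 4.73, 8.93, 11.6 and 10.5 FPKM at P1.5-P2.5 and 34.2, 21.4, 24.7 and 23.5 FPKM at P4-P5 (change 1.48 ± 0.36). Mcm4 measured 9.56, 14.6, 14.5 and 14.4 FPKM and then 51.5, 24.3, 35.5 and 29.3 FPKM (change 1.31 ± 0.32). Dtl, the substrate receptor of the ubiquitin ligase that destroys Cdt1 in S phase, measured 0.973, 3.30, 1.56 and 3.09 FPKM and then 14.4, 10.1, 5.02 and 5.86 FPKM (change 1.58 ± 0.45, adjusted p = 0.136). None of these 3 genes had overlapping libraries either.

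The mesenchymal markers summed to between 571 and 690 FPKM at P1.5-P2.5 and to between 804 and 1284 FPKM at P4-P5, and 5 of 5 had positive changes, 1 of them called. Alveolar type 1 and type 2 markers had negative changes in 5 of 5 each, with 0 called and 2 of each lower at an unadjusted p under 0.05. Neutrophil markers summed to 264 to 394 FPKM at P1.5-P2.5 and to 53.8 to 153 FPKM at P4-P5, with negative changes in 5 of 5 (median -1.62, 0 called and 3 lower at an unadjusted p under 0.05). The 3 erythroid markers of 8 with values had positive changes in 3 of 3 (median 0.76, 0 called and 1 higher at an unadjusted p under 0.05). The part of these cell types in the replication genes was not tested.

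Over the wider early alveolar group against the postnatal saccular group, 1 of 46 was higher (0.527% of all genes), Clspn, and 0 were lower (0.937% of all genes). At an unadjusted p under 0.05 there were 10 higher (5.72% of all genes) and 0 lower (7.42% of all genes), and the change was positive in 45 of 46, with a median of 0.60 against -0.03. Clspn ranged from 0.918 to 11.6 FPKM with a median of 1.85 in the saccular group and from 2.58 to 14.7 FPKM with a median of 9.56 in the early alveolar group (change 1.59 ± 0.39, adjusted p = 0.0302). Its groups overlapped, and the call was lost without P0.5e, P1d, P1e, P1.5e, P1.5d, P4a, P4e, P5b, P5e, P7c or P7d, with adjusted p up to 0.0728, while without P0.5f 2 members were higher.

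The later high was lower than that of E16.5 and above that of E18.5. P4-P5 against E16.5 and against E18.5 were compared after the values had been seen, and both share the P4-P5 libraries. Against E16.5, 3 of 46 were lower (3.5% of all genes), Mcm5, Mcm7 and Pcna, and 0 higher (5.9% of all genes), with 13 lower (10.3% of all genes) and 1 higher (11.6%) at an unadjusted p under 0.05 and a median of -0.82. Without E16.5-9, E16.5-2, P4e or P5e 0 were lower, without P5b 1 was, and without P0.5f 5 were. Pcna measured 112.5, 38.9, 47.6 and 38.5 FPKM in P4-P5, and its ratio of medians to E16.5, 0.219, was the lowest of the 45 members with a median of at least 1 FPKM in both blocks, which leave out Orc1. Against E18.5, 3 were higher (4.24% of all genes), Mcm3, Chaf1a and Timeless, and 0 lower (2.35% of all genes), with 15 higher (12.3% of all genes) and 0 lower (8.03%) at an unadjusted p under 0.05 and a median of 1.13. That count was 0 without E18.5-4, 1 without E18.5-3, 5 without P1e, P1.5e or P10a, 7 without P19d and 8 without P0.5f. Timeless, which together with Tipin holds the helicase and polymerases together, measured 2.05 and 2.12 FPKM at E18.5 and 7.21, 9.21, 9.87 and 15.4 FPKM at P4-P5 (change 1.84 ± 0.43, adjusted p = 0.00971), a call lost without E18.5-4 or E18.5-3.

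Early alveolar against the whole prenatal group gave 1 higher member (9.22% of all genes), Gmnn, and 1 lower (7.59% of all genes), Rfc4, with 1 and 6 at an unadjusted p under 0.05 (14.5% and 15.3% of all genes). The prenatal group joins E16.5, where most members were highest, with E18.5, where the mean over the members was 2.41 and 2.60, and Mcm3 changed by 1.14 (adjusted p = 0.0446) against E18.5 alone. Rfc4, a clamp loader subunit, spanned 5.55 to 25.2 FPKM with a median of 18.6 in the prenatal group and 0 to 18.5 FPKM with a median of 2.13 in the early alveolar group. Its call (change -2.17 ± 0.72, adjusted p = 0.0353) was lost without E16.5-9, E16.5-2, E18.5-4, P7c, P10a or P10f, while 3 members were lower without P4a and 2 without E18.5-3.

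After P5 the values of the members were lower at P7-P10, and no step from P4-P5 on brought a call. From P4-P5 to P7-P10 limma called 0 higher (0% of all genes) and 0 lower (0.00684% of all genes), with 0 and 17 at an unadjusted p under 0.05 (2.04% and 6.54% of all genes), and 43 of 46 changes were negative with a median of -0.85 against -0.11. Without P7d 1 member was lower. From P7-P10 to P13.5-P15 it called 0 higher (0.308% of all genes) and 0 lower (0.595% of all genes), with 1 and 6 at an unadjusted p under 0.05 (5.51% and 6.2% of all genes) and a median of -0.42, which was -0.26 without P7d, -0.27 without P13.5c or P13.5d and -0.62 without P15c. From P13.5-P15 to P19-P28 it called 0 higher (0.0958% of all genes) and 0 lower (0.479% of all genes), with 0 and 3 at an unadjusted p under 0.05 (4.65% and 6.55% of all genes) and a median of -0.25. The 3 of 46 are near the share of all genes, and the median of this last step ranged from -0.06 without P15c to -0.44 without P28c, with -0.14 without P23e and -0.37 without P13.5c. From P4-P5 to the oldest block, all 4 libraries of P4-P5 lay above all 5 of P19-P28 in 25 of 46 members, against 8.5% of all genes. For the 33 members with a median of at least 1 FPKM in both, the P4-P5 median was 2.56 times that of P19-P28 for the middle member, with a range from 0.711 for Gmnn to 9.99 for Clspn.

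The late alveolar group against the early one, 9 libraries against 8, carried the most calls. The numbers of libraries differ between comparisons, so these counts do not rank the size of the changes. Limma called 19 of 46 lower (7.47% of all genes) and 0 higher (3.89% of all genes), with 30 lower (15.5% of all genes) and 1 higher (8.89%) at an unadjusted p under 0.05, and a median of -0.98 against -0.09 over all genes. The lower members were Mcm3, Mcm4, Mcm6, Mcm7, Cdc6, Mcm10, Dtl, Pola1, Prim2, Pole, Pole2, Lig1, Rpa1, Rpa2, Rrm1, Tyms, Tk1, Chaf1a and Clspn, so that each functional group but that of S phase entry was among them. The count was 9 without P4a and between that and 23 (without P10a) in all 29 fits that left out 1 library. Mcm3, Dtl, Prim2, Pole, Rpa1, Tk1, Chaf1a and Clspn were called in each of these fits and under each alternative setting that was run. Other markers differed between the same groups. The macrophage markers summed to 810 to 2884 FPKM in the late and 506 to 935 FPKM in the early group, with 2 of 5 higher and 0 lower, and the mesenchymal ones to 440 to 816 FPKM and 804 to 1284 FPKM, with 1 of 5 higher and 4 lower, so that both sums overlapped. The B cell markers, 4 of 5 with values, summed to 23.2 to 81.2 FPKM and 6.12 to 20.8 FPKM without overlap, with 2 of 4 higher and 0 lower. The part of these cells in the fall was not tested.

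**Figure D3:**
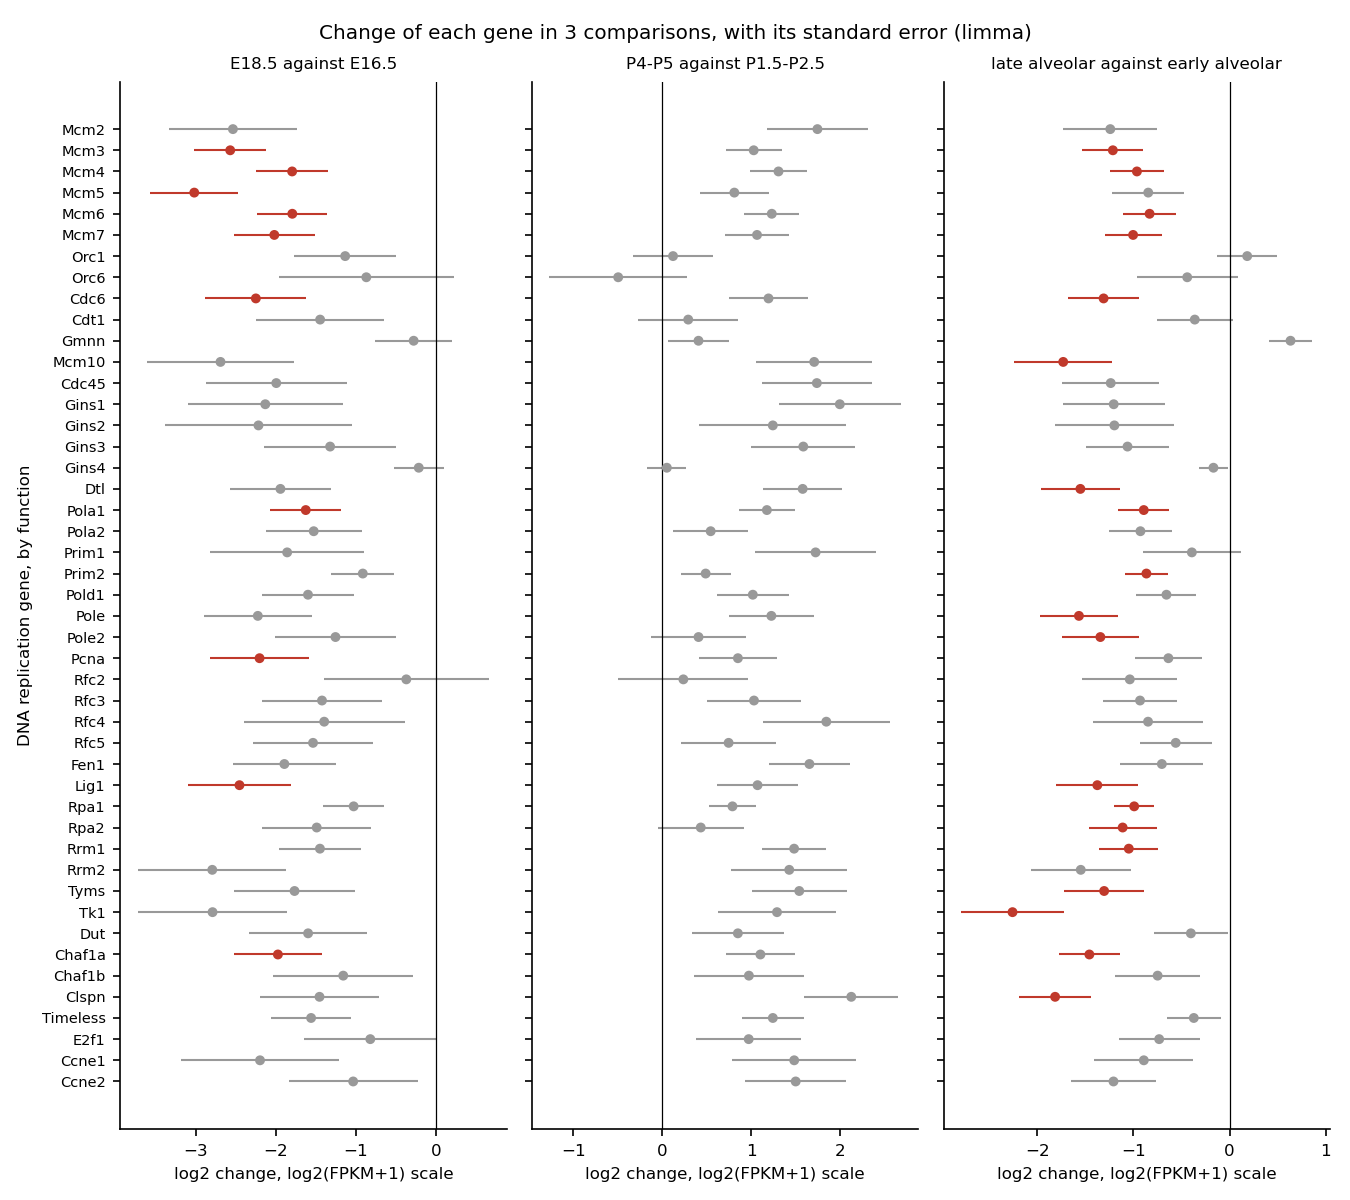
Change in log2(FPKM + 1) of each of the 46 genes (points) with its SE (bars) in 3 comparisons; red marks a limma adjusted p under 0.05. Nearly all points lie left of 0 for E18.5 against E16.5 (10 called), right of 0 for P4-P5 against P1.5-P2.5 (none called, 45 of 46 positive), and left of 0 for the late against the early alveolar group (19 called).

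Tk1, the salvage enzyme thymidine kinase, had the largest change among the called members. It spanned 2.32 to 23.8 FPKM with a median of 13.7 in the early alveolar group and 0 to 9.35 FPKM with a median of 0.871 in the late group, where 3 libraries are listed at 0 (change -2.26 ± 0.53, adjusted p = 0.00500). Its groups overlapped. Rrm1 spanned 7.42 to 34.2 FPKM with a median of 19.9 and then 3.08 to 12.7 FPKM with a median of 9.09 (change -1.05 ± 0.31, adjusted p = 0.0233), and that call was lost without P4a, P5b or P23e. In nucleotide supply Tyms was called as well, while Rrm2 (change -1.55, adjusted p = 0.0508) and Dut (change -0.40) were not.

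Chaf1a, the large subunit of the factor that places histones on new DNA, spanned 9.91 to 21.4 FPKM with a median of 14.4 in the early group and 1.73 to 10.9 FPKM with a median of 4.18 in the late group (change -1.46 ± 0.31, adjusted p = 0.00227). Only the P15c library, at 10.9 FPKM, reached into the range of the early group. Clspn spanned 2.58 to 14.7 FPKM and then 0.529 to 6.46 FPKM with a median of 1.36 (change -1.81 ± 0.38, adjusted p = 0.00161), the smallest p of the 46. Rpa1, the large subunit that coats single strands, spanned 17.1 to 29.3 FPKM with a median of 22.2 and then 4.36 to 16.1 FPKM with a median of 11.4 (change -0.99 ± 0.21, adjusted p = 0.00185). It was the one of these 3 genes whose groups did not overlap at all.

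Among the polymerases and primase 4 of 7 were lower in the late group (7.47% of all genes). Prim2, the large primase subunit and the member of this group with the highest mean level, spanned 8.57 to 34.4 FPKM with a median of 16.1 and then 4.24 to 13.3 FPKM with a median of 9.00 (change -0.86 ± 0.22, adjusted p = 0.00994). Pole, the catalytic subunit of the leading strand polymerase epsilon, spanned 1.18 to 11.0 FPKM with a median of 6.04 and then 0.0199 to 3.05 FPKM with a median of 1.06 (change -1.57 ± 0.40, adjusted p = 0.00965). Pola2, the accessory subunit of polymerase alpha, changed by -0.93 ± 0.33 without passing the threshold (adjusted p = 0.067). In the licensing and activation group 3 of 12 were lower, against the same 7.47% of all genes. Dtl spanned 0.668 to 14.4 FPKM with a median of 3.91 and then 0 to 2.18 FPKM with a median of 0.809 (change -1.55 ± 0.41, adjusted p = 0.0117), and its P7 and P10 libraries, at 0.668 to 2.80 FPKM, already lay within or near the late range. Of the 3 genes of S phase entry, E2f1, a founding E2F factor, changed by -0.73 ± 0.42 and Ccne2, a cyclin partner of Cdk2, by -1.21 ± 0.44 (adjusted p = 0.0723).

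**Figure D4:**
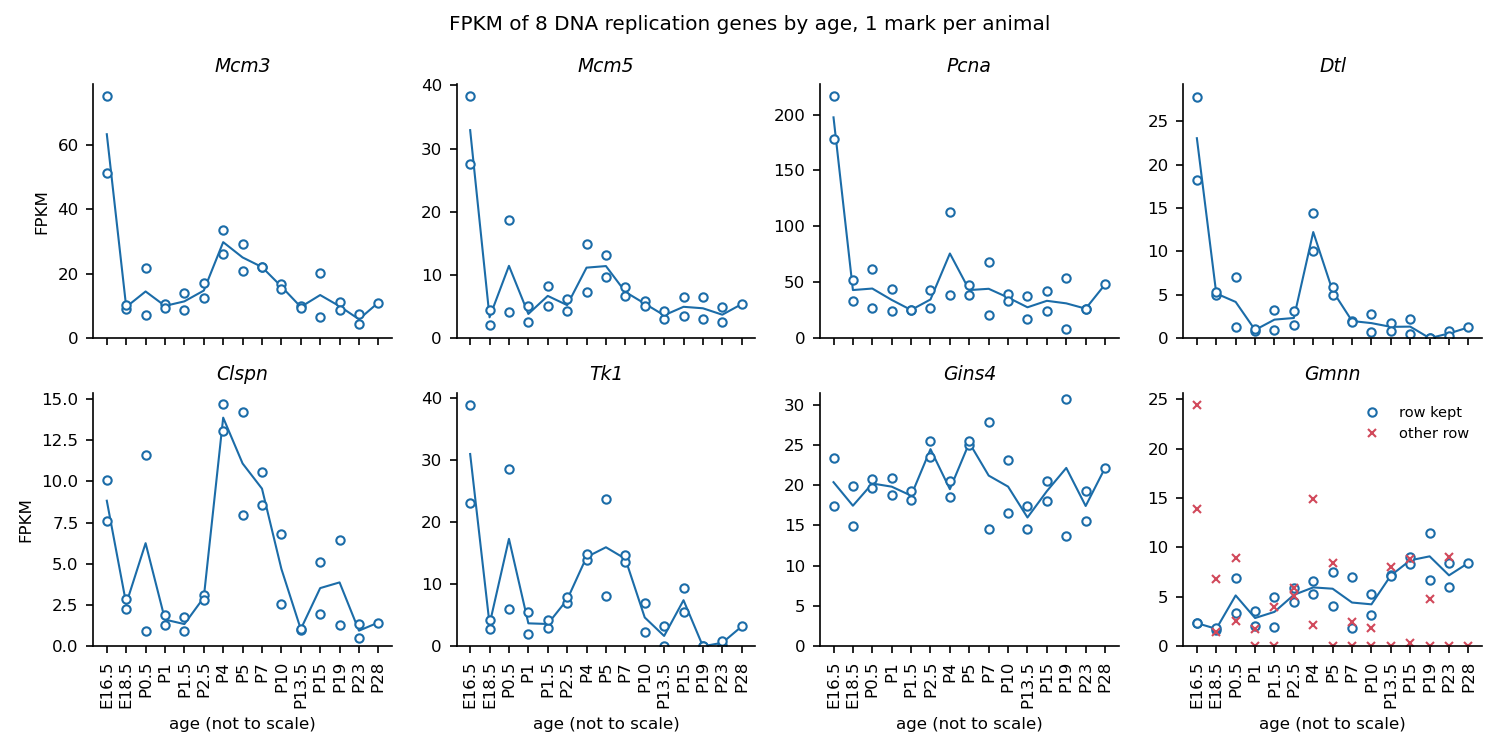
FPKM of 8 members by age, 1 mark per animal, with a line through the mean of each age for the row that was kept; ages are evenly spaced, each panel has its own vertical axis from 0, and crosses in the Gmnn panel are its other row. Mcm3, Mcm5, Pcna, Dtl and Tk1 peak at E16.5, Clspn peaks at P4 (13.1 and 14.7 FPKM), Gins4 stays between 13.6 and 30.6 FPKM, and the kept Gmnn row climbs from 2.32 and 2.36 FPKM at E16.5 to 8.43 FPKM at P28.

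A few members did not follow the rest. Gins4, a GINS subunit, had the highest mean level of the licensing and activation group, 20.2 FPKM, and stayed between 13.6 and 30.6 FPKM in all 29 libraries, without a call in any comparison. Its partners varied more, and over the 4 GINS genes the mean log2 level was 4.00 and 4.03 at E16.5 and lay between 2.81 and 3.84 at P4-P5. Gins4 stands on 2 rows of the table, and the other row spanned 0 to 23.0 FPKM. The 2 ORC genes were low and uneven. Orc1 reached 4.47 FPKM at most and was listed at 0 in some libraries of all postnatal groups, and Orc6 spanned 0 to 17.2 FPKM, with the highest value in P19d. Between early and late alveolar animals the change was 0.18 ± 0.31 for Orc1 and -0.44 ± 0.53 for Orc6.

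Gmnn rose with age on the row that the rule keeps, the opposite of its group. This row measured 2.32 and 2.36 FPKM at E16.5, 1.67 and 1.86 FPKM at E18.5, 5.28, 6.62, 4.11 and 7.53 FPKM at P4-P5, and between 5.97 and 11.5 FPKM in the 9 late alveolar libraries. Early alveolar against prenatal it was higher by 0.93 ± 0.29 (adjusted p = 0.0242, a call lost without E18.5-4 or E18.5-3), and the age test called it (adjusted p = 0.00372). The other row of the same gene ID measured 13.9 and 24.4 FPKM at E16.5, 1.44 and 6.80 FPKM at E18.5 and 14.9, 2.15, 8.41 and 0 FPKM at P4-P5, and is listed at 0 in 9 libraries. With the rows summed the change was -0.42 and with the other row alone it was -1.68, neither of them called. The rows carry no transcript name, and the direction for Gmnn thus depends on which row is read.

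Genes of the same processes outside the 46 were set beside them. The 32 other replication factors include the remaining ORC subunits, the Cdc7 kinase and the small polymerase subunits. In the late against the early alveolar group 7 of them were lower (7.47% of all genes) and 0 higher (3.89% of all genes). Their median was -0.44, and 19 of the 46 members were lower (median -0.98). Of 20 further S phase genes and E2F targets 12 were lower and 0 higher (median -0.99). Of 20 mitosis genes such as Mki67, Top2a and Cdk1, 19 were lower and 0 higher (median -1.97). From P1.5-P2.5 to P4-P5 none of these lists had a call in limma (0.0479% of all genes higher and 0.0342% lower). At an unadjusted p under 0.05 the higher genes were 7 of 32, 13 of 20 and 18 of 20, beside the 28 of 46 members (5.6% of all genes). At birth the lists differed in value. From E18.5 to P0.5-P1 the mitosis genes had negative changes in 20 of 20, with a median of -1.40. Limma called 0 of them lower (0.876% of all genes) and 0 higher (1.96% of all genes). At an unadjusted p under 0.05, 10 of them were lower (6.44% of all genes). The median of the members was 0.10. The mean log2 level of the mitosis genes was 3.80 and 3.87 at E18.5, 1.75 and 4.11 at P0.5, and 2.08 and 1.72 at P1. The difference between the lists was not tested.

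The members with an E2F element could be set beside those without. Of the 9 genes with an element, 5 were lower from E16.5 to E18.5 (median change -1.79). So were 4 of the 28 genes with an entry and no element (median -1.60, range -2.79 to -0.82), against 1.72% of all genes. The 5 were Mcm5, Mcm6, Mcm7, Cdc6 and Pola1, so that the element and the MCM helicase group cannot be told apart in this count. In the late against the early alveolar group 5 of 9 and 11 of 28 were lower (7.47% of all genes), with medians of -0.93 and -0.96. From P1.5-P2.5 to P4-P5 the medians were 1.18 and 1.09. These are counts in few genes with ranges that overlap, and no test was made.

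Animals of the same age mostly had similar levels of these genes. Over the 14 pairs the difference in the mean over the 46 members was between 0.0059 and 1.21, with a median of 0.21, and it was largest at P0.5. There animal f exceeded animal e in 42 of 46 members, with a median difference of 1.33, and in 20 of 20 mitosis genes, with a median of 2.16. Over all tested genes 51.5% were higher in P0.5f, with a median difference of 0.023. The sum of the MCM genes was 141 FPKM in P0.5f and 55.9 FPKM in P0.5e, that of P0.5f lying within the 111 to 201 FPKM of P4-P5. At P15 animal c exceeded animal e in 39 of 46 members (median difference 0.78) and in 19 of 20 mitosis genes (median 1.56). Over all tested genes 47.1% were higher in P15e. The P15c library also had more of the macrophage markers (2372 against 1356 FPKM in sum) and of T cell markers (125 against 28.3 FPKM). Its neutrophil (364.2 against 179.5 FPKM) and B cell markers (54.88 against 43.25 FPKM) were higher too. So were its erythroid markers (25.07 against 5.104 FPKM), while its club cell (2162 against 4741 FPKM) and endothelial markers (672.8 against 964.9 FPKM) were lower. P0.5f had less of the macrophage markers than P0.5e (591 against 937 FPKM) and less of the neutrophil ones (213 against 570 FPKM). It had more of the B cell (21.87 against 10.49 FPKM) and T cell markers (7.367 against 0.2507 FPKM). Heart muscle genes summed to 128 FPKM in P0.5f and 383.9 FPKM in P0.5e, and mesothelial ones to 47.67 and 115.7 FPKM. The part of these cell types in the differences between animals was not tested. The labels do not say whether pups of one age were littermates.

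**Figure D5:**
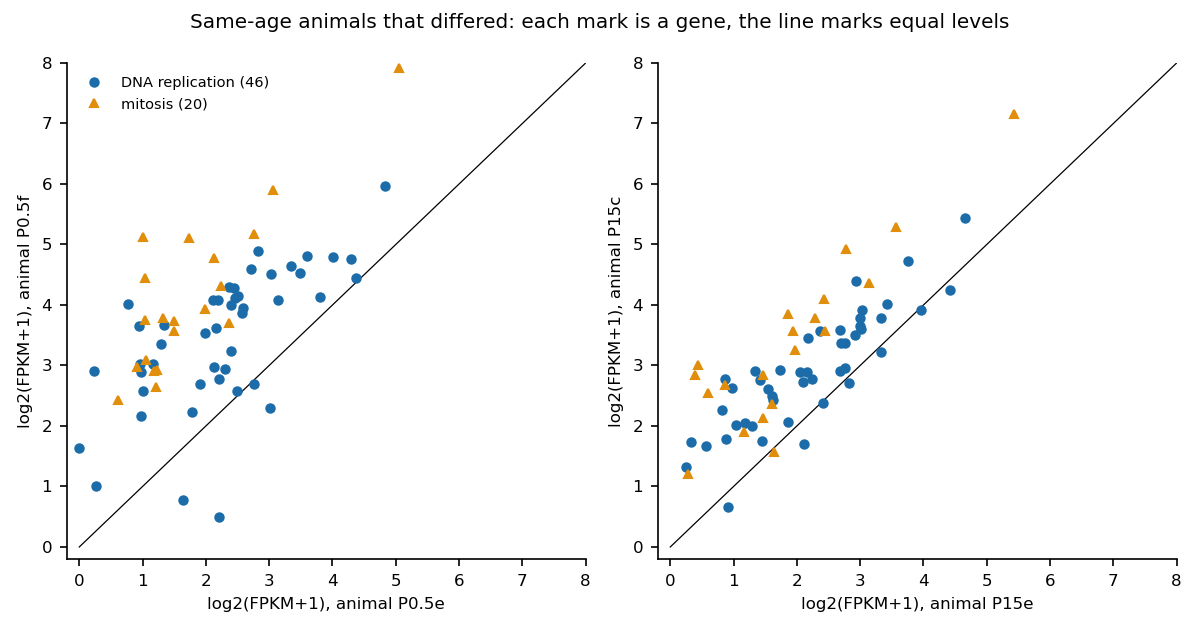
log2(FPKM + 1) of each of the 46 replication genes (circles) and 20 mitosis genes (triangles) in the 2 animals of P0.5 (left) and of P15 (right); the line marks equal levels. At P0.5 42 of 46 and 20 of 20 marks lie above the line, and at P15 39 of 46 and 19 of 20. Of all tested genes 51.5% were higher in P0.5f and 47.1% were higher in P15e.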

How the data were processed

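RNA of laser-captured alveolar areas of 29 mice was depleted of ribosomal RNA and sequenced in stranded libraries. The authors deposited FPKM values; the submitters' processing notes name STAR 2.5.1, Cufflinks 2.2.1 and mm10, while settings and annotation are not given in the sources used here. FPKM keeps no read depth, so the depth of a library and its counting error are unknown; errors come from the spread over animals. FPKM is relative to all RNA in a library, so a change in abundant genes shifts every other gene.

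The table holds 24486 lines for 22779 gene IDs, 22718 of them with a symbol; 1226 IDs stand on several lines, 944 with differing values, and the line with the highest mean was kept. Groups came from the age labels; the design text names no E18.5, which 2 labels give. Genes with at least 1 FPKM in at least 4 libraries (14616) were tested on log2(FPKM + 1) by limma (version 3.58.1, R 4.3.3; moderated variances with an intensity trend), in 1 fit of 4 stage groups, 1 of 8 age blocks and 1 of a natural spline of log2 days since conception (3 degrees of freedom, birth at day 19). P values were adjusted by Benjamini-Hochberg over all tested genes, with a threshold of 0.05. Fold changes are on the log2(FPKM + 1) scale and understate low genes. The fits were tested on simulated data. The 46 members, the gene lists and the tests were chosen with earlier results of these data known. In each functional group the member with the highest mean, that with the smallest p in late against early alveolar, and any that went against its group in a called comparison were given with values; Mcm5, Mcm2, Timeless, Rfc4, Rrm2, Dut and the same-age animals were picked with their values in view. The stage group and age block tests were repeated with quantile normalization, median ratio scaling and a pseudocount of 0.1. They were also run with no filter or one at 5 FPKM, the other line of repeated IDs, and libraries left out. For array weights, a covariate for labelled sex, other groupings and summed lines, counts were made in the stage groups only. The age test was repeated with the 2 normalizations, the pseudocount, postnatal libraries only and sets of libraries left out, but not single ones. Python 3.11.15, numpy 2.4.6, pandas 2.3.3 and matplotlib 3.10.9 were used.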

Additional observations from a re-analysis of the deposited data

Results flagged for a closer look

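In groups of 4 to 9 libraries, 19 of 112 sets of values had a highest or lowest library far from the rest. Chance gives about 6 in independent sets, but these sets share libraries and genes, so the 19 cannot be judged against it. Of the 19, 11 are the P0.5f library standing above the other postnatal saccular libraries. They are Ccne2 (6.49 FPKM, others up to 2.66), Clspn (11.6, others up to 3.09), Dtl (7.10, others up to 3.30), E2f1 (11.3, others up to 4.53), Pole (11.8, others up to 4.42), Rrm1 (22.0, others up to 11.6) and Tk1 (28.6 FPKM). The others are the mean log2(FPKM + 1) of all members (3.47, others up to 2.60), of the MCM genes (4.60, others up to 3.68), of nucleotide supply (4.11, others up to 2.74) and of S phase entry (3.14, others up to 1.89).

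The P15c library stood above the other late alveolar libraries for Lig1 (11.0 FPKM), Mcm3 (20.1 FPKM) and Mcm4 (25.6 FPKM). E2f1 in E18.5-4 was at 1.33 FPKM against at least 5.68 in the other prenatal libraries. Gins4 was at 30.6 FPKM in P19f, Orc1 at 2.18 FPKM in P1.5e, and Orc6 at 11.6 FPKM in P1.5d and at 17.2 FPKM in P19d.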

How the results depend on the processing

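The count of members lower in the late against the early alveolar group stayed between 14 and 26 under the other settings and between 9 and 23 with a library left out. Of the values of single named members under all settings, 3348 were counted as unchanged, 48 lost a call and 37 gained one. A further 3 reversed direction with a call in the main fit or in the other fit. A change of direction without a call in either fit was counted as unchanged. The 3 reversals with a call were Mcm3 early alveolar against prenatal with E18.5 alone (1.14), and Gmnn in the same comparison with summed lines (-0.42) or the other line (-1.68).

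Postnatal saccular against prenatal, members lower were 17 in a fit of 15 ages, 0 with E18.5 alone, and 2 to 16 with a library left out; the median change was 0.04 with E18.5 alone. Early alveolar against saccular, members higher were 0 (pseudocount 0.1), 5 (array weights), 2 (only these groups), 4 (15 ages), 2 (E18.5 alone), 2 (without P0.5f and P15c) and 0 to 2 with a library left out. Late against early alveolar, 1 was higher under median ratio scaling or quantile normalization. Early alveolar against prenatal, 0 were higher with only these groups, summed lines or the other line, 3 with E18.5 alone, and 0 to 1 with a library left out; 0 were lower with a pseudocount of 0.1, array weights, only these groups, E18.5 alone or without P10a, P19d and P19f, 3 in the fit of 15 ages, and 0 to 3 with a library left out, and the median was 0.56 with E18.5 alone. E18.5 against E16.5, 5 were lower with a pseudocount of 0.1 and 1 to 12 with a library left out. P4-P5 against P1.5-P2.5, 1 was higher with quantile normalization, 5 without P0.5f and P15c, and 0 to 5 with a library left out. P7-P10 against P4-P5, 0 to 1 were lower with a library left out. P4-P5 against E16.5, 1 was lower with a pseudocount of 0.1, 5 without P10a, P19d and P19f, 5 without P0.5f and P15c, and 0 to 5 with a library left out. P4-P5 against E18.5, 7 were higher with the filter at 5 FPKM, 10 without P10a, P19d and P19f, 7 without P0.5f and P15c, and 0 to 8 with a library left out. Where a fit had fewer libraries or genes that is part of the change; otherwise the cause was not tested. Where 1 library remained at an age, its spread was taken to be that of the other groups.

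With 2 animals at E16.5 and 2 at E18.5, calls there rest on the pooled spread. No paired analysis was possible because pup letters name animals within an age and pair none across ages. Leaving out P0.5f and P15c, the other line of a repeated ID, and the comparisons of P4-P5 with E16.5 and E18.5 were added after the data were seen.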
